A study of Rattus norvegicus with 6 samples.

Results

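Interferon-stimulated genes were followed in the thoracic aorta of the hypertensive inbred rat strain SHR (spontaneously hypertensive rat) and of its usual normotensive comparison strain WKY (Wistar-Kyoto). The rats were 24 weeks old, received no treatment, and each strain had 3 Affymetrix Rat Gene 2.0 ST arrays of total RNA, 6 arrays in all. Whether the arrays of a strain came from separate animals is not stated in the labels, so p-values measure the spread between these arrays, which may be technical. A list of 36 genes was chosen by function, as genes known to be induced by interferon, with the log2 differences between SHR and WKY on these same arrays already known. The SHR and WKY levels of the members are therefore a description with no test of the members themselves. Of the 36 genes, 33 were named by a probe set (a group of short probes that reports 1 transcript) whose annotation gives 1 gene, through 35 of the 28879 probe sets. Ddx58 was found under the platform's name Rig1. Bst2, Eif2ak2 and Oas3 had no such probe set and were not analysed here. All 33 genes passed the filter on dim probe sets, as did 15281 named genes in all.

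Interferons are secreted proteins that warn cells of viral nucleic acid. Type I interferons bind a receptor that activates the kinases JAK1 and TYK2, and the complex that then forms with IRF9 binds an element called ISRE in the promoters of the induced genes. Interferon gamma acts mainly through another element, GAS. The induced genes encode sensors of viral RNA, enzymes that degrade RNA or block its translation, GTPases that trap viral particles, and regulators that amplify or end the response. In an artery these genes can be expressed by endothelial cells, smooth muscle cells, fibroblasts and resident leukocytes, and in whole tissue fewer cells of a type cannot be told apart from less RNA per cell.

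The promoters of the members were searched for the ISRE and GAS elements. RefSeq's promoter table (assembly GRCr8, 250 bases before to 50 bases after each annotated start) held 24 of the 33 measured genes. The ISRE core was searched as GAAANNGAAA on both strands and lay in 15 of these 24 promoters (62.5%), against 3.92% of all 33469 promoters in the table. The GAS core, searched as TTCNNNGAA, which reads the same on both strands, lay in 6 of the 24, against 8.87% of all promoters, and 3 promoters held both. A match is a description of letters and not a shown binding site. The stretches that follow end at or before the annotated start, run 5′ to 3′ along the gene's strand, and have the ISRE core in capitals, printed as its reverse complement where the match is on the other strand. The first 6 are the measured genes with an ISRE before the start that have the highest mean level over the 6 arrays. The last 3, chosen after their values were seen, are genes that hold such an ISRE and whose strains did not overlap. Among the other genes with non-overlapping strains, Cmpk2 had a promoter without an ISRE core and Ifit1 had no promoter in the table.
Ifi27, chr6:128355123-128355257, plus strand: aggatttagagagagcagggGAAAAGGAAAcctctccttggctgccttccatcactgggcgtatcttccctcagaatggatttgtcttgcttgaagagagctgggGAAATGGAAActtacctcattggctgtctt
Isg20, chr1:142239947-142239996, plus strand: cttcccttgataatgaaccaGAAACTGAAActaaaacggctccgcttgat
Gbp5, chr2:233910923-233910972, plus strand: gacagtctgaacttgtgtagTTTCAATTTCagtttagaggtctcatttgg
Parp14, chr11:78408038-78408087, plus strand: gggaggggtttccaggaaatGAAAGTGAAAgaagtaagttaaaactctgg
Ifi44, chr2:243303841-243303886, minus strand: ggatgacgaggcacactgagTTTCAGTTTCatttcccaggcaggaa
Irf7, chr1:205800063-205800112, minus strand: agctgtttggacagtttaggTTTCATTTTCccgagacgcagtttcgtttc
Ifih1, chr3:67683998-67684047, minus strand: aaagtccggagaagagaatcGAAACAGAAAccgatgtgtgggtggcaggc
Oas1a, chr12:41330405-41330460, plus strand: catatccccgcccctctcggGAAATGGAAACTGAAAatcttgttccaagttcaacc
Ifi44l, chr2:243328612-243328693, plus strand: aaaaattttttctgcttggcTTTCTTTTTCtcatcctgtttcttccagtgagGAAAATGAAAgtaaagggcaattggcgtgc
In Oas1a the capitals are 2 overlapping matches, which start at positions -41 and -35 from the annotated start. Ifi27 and Ifi44l also hold 2 matches each. The single matches of Irf7 and Ifih1 start at -69 and -59.

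The interferon-stimulated genes lay on both sides of 0 between the strains, and Ifit1 had the widest difference among them. Differences are SHR minus WKY on the log2 scale, with the standard error (SE) of the limma fit, and 12 of the 33 genes lay above 0, where 50.9% of all named genes did. The other 21 lay below 0. The median difference was -0.11 over the 33 genes and 0.01 over all 15281 named genes. A difference of over 0.5 in either direction was seen in 6 of the 33 (18.2%), against 6.96% of all named genes. No member passed an adjusted p of 0.05 in limma over all tested probe sets (0 of 33, background 0.0851%), where the smallest limma adjusted p was 0.228, for Ifit1. The unadjusted p was under 0.05 for 4 members (background 5.88%), of which 2 had higher and 2 had lower values in SHR. The 3 SHR arrays lay wholly above the 3 WKY arrays for 2 genes, Ifit1 and Ifih1 (background 7.41%), and wholly below them for 3 genes, Oas1a, Ifi44l and Cmpk2 (background 5.72%). Nothing is read from these counts, since the members were listed with this contrast known.

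Some facts of the arrays bear on every value. The table gives no detection call, and the medians of the 6 arrays lay between 2.29 and 2.52, so a level near or under these is not shown to lie above background. Values of WKY replicate 3 were spread least (SD over probe sets 2.12, against 2.22 to 2.27 on the other 5), and its fitted array weight was the lowest, 0.22. SHR replicate 1 had the next lowest, 0.69, where the others ran from 1.08 to 2.05. Myh11, the smooth muscle myosin that marks the aortic wall, had means of 10.79 ± 0.13 in SHR and 10.88 ± 0.01 in WKY (SD, n = 3 each).

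The Ifit genes lie in a cluster and encode proteins that bind foreign RNA ends and stop their translation. Ifit1 lay at 3.94, 2.58 and 2.96 in SHR replicates 1 to 3, against 1.39, 1.30 and 1.04 in WKY replicates 1 to 3. Its SHR arrays were all above the array medians, though SHR replicate 2 lay close to the highest of them, 2.52. The WKY arrays of Ifit1 were all below the medians. The measured difference of 1.92 ± 0.33 (SE) is thus against a WKY level not shown to exceed background, and is no estimate of a fold in RNA. Leaving out any 1 array kept this difference between 1.53 and 2.21. Ifit2 lay at 6.04, 5.35 and 4.84 in SHR and at 5.61, 5.68 and 3.93 in WKY. The strains overlapped, and the Ifit2 difference of 0.34 ± 0.51 turned to -0.23 without WKY replicate 3. Ifit3 lay at 2.46, 1.73 and 1.86 in SHR and at 2.23, 2.63 and 1.98 in WKY, again overlapping (-0.26 ± 0.25), with 1 of 6 arrays above all array medians. Among these 3 neighbours only Ifit1 separated the strains. Whether Ifit1 differs from Ifit2 and Ifit3 in its strain difference was not tested.

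**Figure D1:**
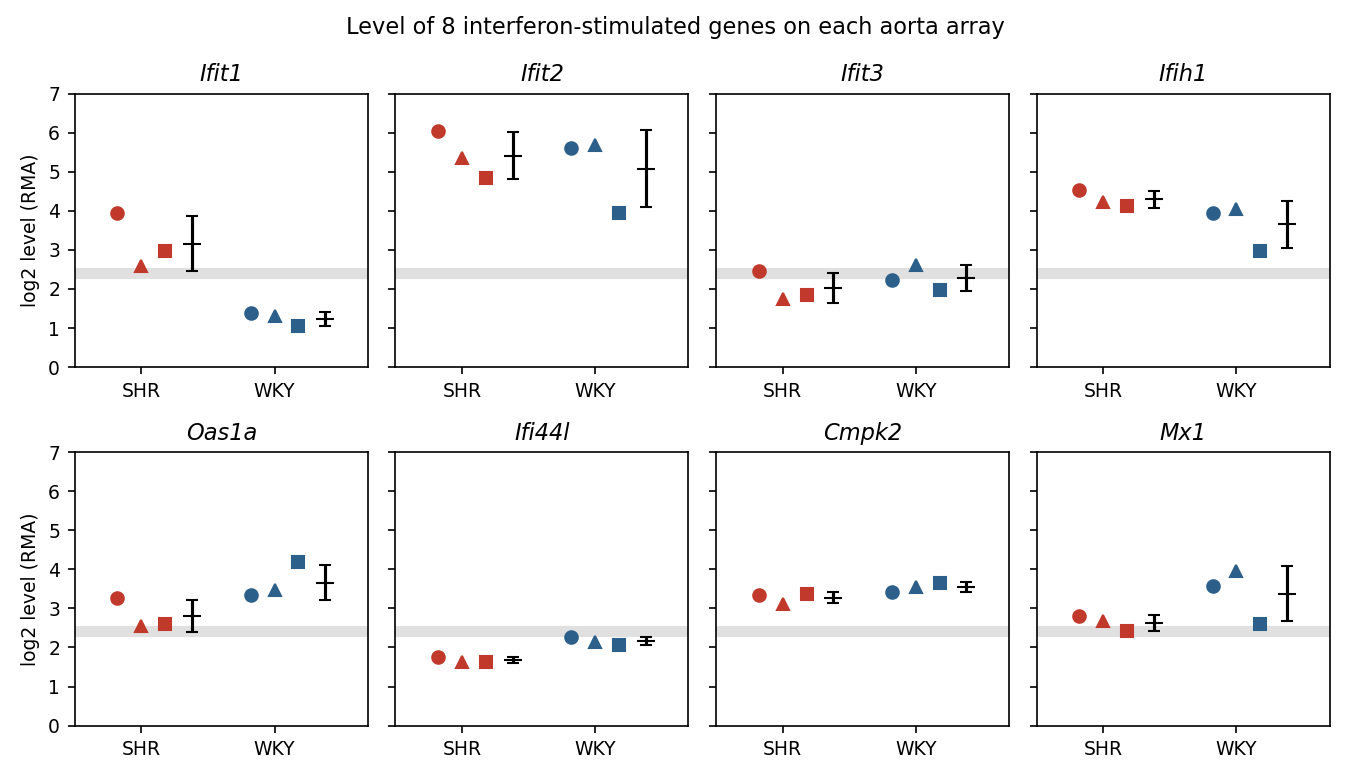
Log2 level of 8 genes on each array (circle, triangle and square are replicates 1, 2 and 3), SHR in red to the left and WKY in blue to the right, with the mean ± SD (n = 3) as black bars. The grey band marks the range of the array medians, 2.29 to 2.52, and the Ifit1 points of SHR sit above it and those of WKY below it.

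The 3 sensors of viral RNA lay on both sides of 0, with 2 above it and 1 below. Ifih1 encodes MDA5, a helicase that detects long double-stranded RNA. Its levels were 4.53, 4.22 and 4.12 in SHR, against 3.95, 4.04 and 2.97 in WKY. Every SHR array was above every WKY array, but the difference of 0.64 ± 0.30 (SE) rested largely on WKY replicate 3 and was 0.30 without it. Ddx58, the sensor RIG-I of short RNA with a 5′ triphosphate, had means of 4.82 ± 0.24 in SHR and 4.93 ± 0.23 in WKY (SD, n = 3 each), with overlapping arrays. Dhx58, their relative LGP2 that lacks signalling domains, had means of 2.76 ± 0.05 in SHR and 2.73 ± 0.19 in WKY.

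The transcription factors of the response lay at close levels in both strains. Irf7, which amplifies type I interferon production, varied within each strain by over 1 log2 unit, with 4.74, 3.88 and 3.65 in SHR and 4.50, 4.75 and 3.43 in WKY. These groups overlapped, at a difference of -0.13 ± 0.41 (SE), and the largest Irf7 value in SHR was close to that in WKY. Irf9, the DNA-binding partner of the STAT proteins, had means of 5.31 ± 0.12 in SHR and 5.22 ± 0.30 in WKY. Stat2 lay at 4.98, 4.64 and 5.07 in SHR, against 4.98, 5.25 and 4.78 in WKY. Irf1, an activator that responds to interferon gamma, had means of 5.12 ± 0.08 in SHR and 4.94 ± 0.40 in WKY, where replicate 3 alone lay below the other arrays at 4.47. Irf8, a factor of macrophages and dendritic cells, had 4.08 ± 0.11 in SHR and 4.03 ± 0.13 in WKY. All 5 factors had WKY replicate 3 as the lowest of the WKY arrays.

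The ISG15 system attaches the ubiquitin-like protein ISG15 to other proteins, and USP18 removes it and also curbs signalling from the interferon receptor. Usp18 had 2 probe sets. The brighter lay at 3.56, 3.43 and 3.42 in SHR, against 3.80, 3.87 and 3.34 in WKY (-0.19 ± 0.18, SE). The dimmer lay at 2.22, 1.86 and 1.88 in SHR, against 2.99, 2.93 and 1.78 in WKY (-0.58 ± 0.33). On both, WKY replicates 1 and 2 were above all SHR arrays and WKY replicate 3 was below them. Isg15 itself had means of 2.40 ± 0.23 in SHR and 2.45 ± 0.16 in WKY (SD), with 2 of 6 arrays above all array medians. Trim25, a ubiquitin ligase that acts on RIG-I, had 6.08 ± 0.32 in SHR and 6.18 ± 0.19 in WKY.

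Members of the OAS family sense double-stranded RNA and make a messenger that activates the ribonuclease RNase L. Oas1a lay at 3.27, 2.55 and 2.60 in SHR, against 3.34, 3.46 and 4.17 in WKY. All SHR arrays were below all WKY arrays, with SHR replicate 1 close to WKY replicate 1. The difference was -0.85 ± 0.29 (SE) and stayed between -1.08 and -0.60 when any 1 array was left out. Unlike Irf7 or Ifih1, Oas1a had its highest value of all on WKY replicate 3. Rats carry several near-identical OAS1 copies, and cross-hybridisation between them was not examined. Oas2, with means of 2.33 in SHR and 2.41 in WKY, and Oasl, with 1.45 and 1.57, had no array above all array medians. The exonuclease Isg20 had means of 5.22 ± 0.30 in SHR and 5.54 ± 0.10 in WKY (SD), and the SHR arrays overlapped the WKY ones.

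Of the 5 GTPases, 4 had a lower mean in SHR, and none separated the strains. Mx1 and Mx2 belong to the dynamin-like Mx proteins, which block replication of RNA viruses in rodents. Mx1 lay at 2.81, 2.67 and 2.41 in SHR, against 3.57, 3.97 and 2.60 in WKY (-0.75 ± 0.33, SE). WKY replicates 1 and 2 exceeded every SHR array, while WKY replicate 3 lay among them, and without it the Mx1 difference was -1.14. Mx2 had the same order of arrays in WKY, at 4.96, 4.74 and 4.69 in SHR and 5.02, 5.71 and 4.57 in WKY (-0.30 ± 0.28). Guanylate-binding proteins, induced above all by interferon gamma, coat vacuoles and bacteria inside cells. Gbp5 lay at 4.83, 4.84 and 4.21 in SHR, against 5.12, 5.40 and 4.84 in WKY (-0.49 ± 0.23), where the highest SHR and the lowest WKY array met. Gbp2 had means of 3.77 ± 0.42 in SHR and 3.94 ± 0.16 in WKY (SD). Gbp4, with means of 1.84 in SHR and 1.81 in WKY, exceeded all array medians on 0 arrays.

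Rsad2 encodes viperin, which makes a nucleotide that ends viral RNA chains, and Cmpk2, its neighbour, encodes a mitochondrial kinase that supplies nucleotides. Rsad2 lay at 2.29, 1.74 and 1.49 in SHR, against 2.59, 2.69 and 1.76 in WKY (-0.51 ± 0.31, SE), and only WKY replicates 1 and 2 exceeded all array medians. Cmpk2 lay at 3.35, 3.11 and 3.36 in SHR, against 3.41, 3.56 and 3.66 in WKY. The Cmpk2 arrays of the strains did not overlap, at a small difference of -0.27 ± 0.15, and the gap between the nearest SHR and WKY arrays was far smaller than the spread within either strain. Samd9l, an antiviral factor that represses translation, was read by a pair of probe sets. The brighter lay at 7.75, 7.80 and 7.73 in SHR, against 7.42, 7.84 and 6.79 in WKY (0.41 ± 0.26). The dimmer probe set of Samd9l gave 0.18 ± 0.23, and without WKY replicate 3 the brighter gave 0.13.

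Parp9 and Dtx3l encode partners of one complex that modifies histones and viral proteins, and Parp14 encodes a related ADP-ribosyl transferase. Dtx3l lay at 5.34, 5.12 and 4.84 in SHR, against 4.92, 4.44 and 4.12 in WKY (0.61 ± 0.24, SE). SHR replicates 1 and 2 were above all WKY arrays, and SHR replicate 3 was under WKY replicate 1. Parp9 pointed the other way, with means of 4.40 ± 0.39 in SHR and 4.66 ± 0.14 in WKY (SD), so the 2 partners were not measured alike. Parp14 had means of 4.96 ± 0.35 in SHR and 4.68 ± 0.29 in WKY.

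Ifi27 encodes a small membrane protein and is strongly induced by type I interferon. It lay at 8.20, 7.35 and 7.02 in SHR, against 8.31, 8.37 and 6.58 in WKY (-0.23 ± 0.52, SE). The WKY arrays of Ifi27 spanned 1.80 log2 units, and without WKY replicate 3 the difference was -0.82. Ifi44l lay at 1.77, 1.62 and 1.64 in SHR, against 2.26, 2.14 and 2.06 in WKY. All SHR arrays were below all WKY arrays (-0.48 ± 0.14), but both strains lay under every array median, and neither level is shown to exceed background. Its relative Ifi44 had means of 4.28 ± 0.13 in SHR and 4.09 ± 0.22 in WKY (SD). Xaf1, a promoter of cell death, had 3.97 ± 0.03 in SHR and 4.13 ± 0.27 in WKY.

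The members varied between arrays of 1 strain in a shared way. After the strain mean of each gene was subtracted, the 528 pairs of members had a median Pearson r of 0.43 over the 6 arrays, and all pairs of the 15281 named genes had a median of 0.01. An r above 0.8 was seen in 19.1% of member pairs and 8.85% of all pairs. These are descriptions: the points share 6 arrays, and the same technical differences between arrays enter every gene. The mean deviation of all 15281 named genes on each array correlated at 0.94 with that of the members. It ran from -0.057 to 0.038, against -0.282 to 0.215 for the members. Irf7 had the highest mean r with the other members (0.56), followed by Rsad2 (0.55) and Ifi27 (0.54). Examples of a high r were those of Irf7 with Rsad2 (0.99), Ifi27 (0.98), Ifit2 (0.97) and Usp18 (0.91), and of Mx1 with Mx2 (0.93). The mean r was negative for others, at -0.13 for Oas1a, -0.38 for Isg20 and -0.48 for Dhx58. Some of these varied inversely with single members, as Dhx58 with Mx2 (-0.94) and Irf9 (-0.93), and Isg20 with Ifit1 (-0.97). The neighbours Rsad2 and Cmpk2 had an r of -0.31, and the partners Parp9 and Dtx3l one of 0.29.

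**Figure D2:**
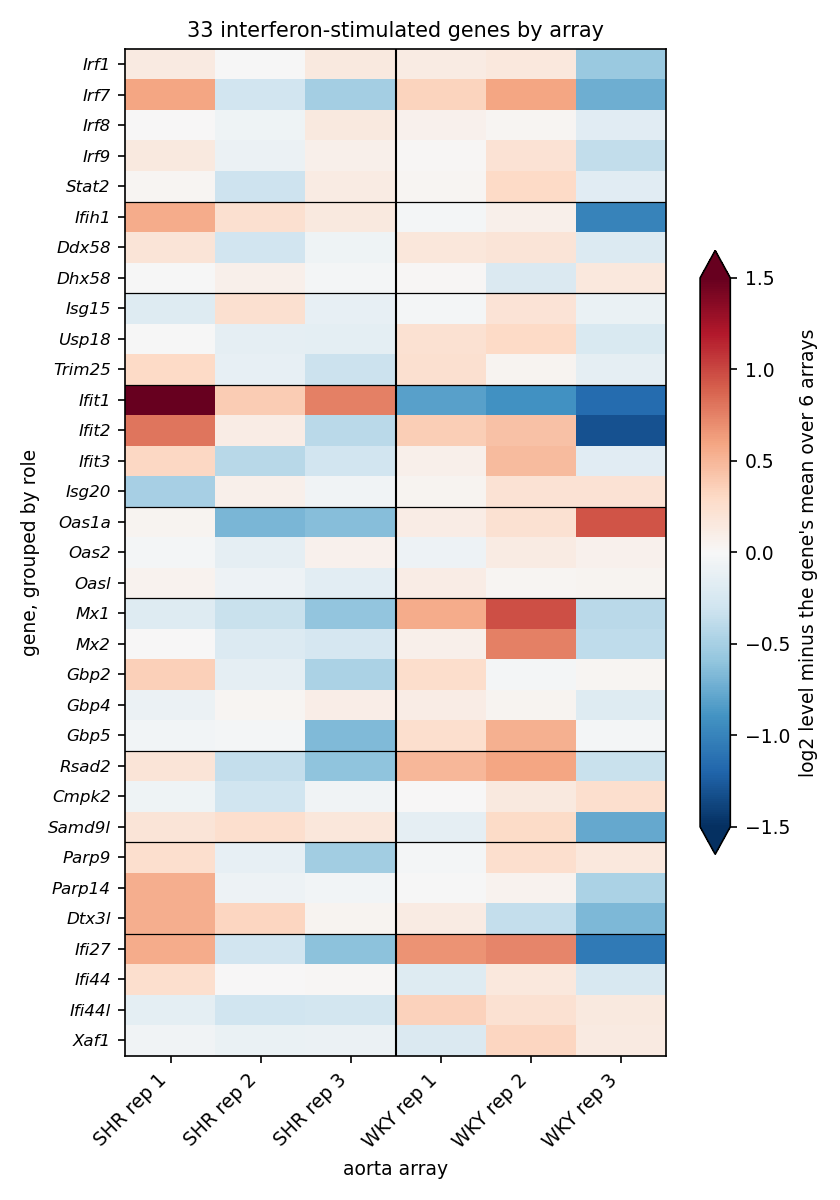
Log2 level of each gene minus its mean over the 6 arrays (colour, red above and blue below, limited at 1.5), with arrays in columns, SHR left of WKY, and genes in rows grouped by role. WKY replicate 3 is blue and SHR replicate 1 is red for many genes, and Ifit1 is above its mean on all SHR arrays and below it on all WKY arrays.

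A pair of arrays held the highest or lowest value within its strain for most members. SHR replicate 1 was the highest SHR array for 22 of the 33 genes (66.7%, against 35.2% of all named genes), and WKY replicate 3 was the lowest WKY array for 24 (72.7%, against 46.1%). It was the lowest of all 6 arrays for 15 members (background 33.3%). Without WKY replicate 3 the median r of the members was 0.39, and 0.002 over all named genes. Without both arrays these were 0.13 and 0.006. The arrays were picked as extremes of the members, few arrays remained, and no other pair was left out. The fall in r therefore does not show what part of the pattern these arrays carried. The mean level of the 33 genes was 4.22, 3.93 and 3.87 on SHR replicates 1 to 3, against 4.12, 4.24 and 3.76 on WKY replicates 1 to 3. The arrays of each strain spread more widely than the strains differed.

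The median difference of the members lay below 0 with and without those arrays, and its size moved. Without WKY replicate 3, 26 of the 33 members lay below 0 (background 51.0%), 9 had all SHR arrays below all WKY arrays (background 12.6%) and 2 had them above (background 12.6%). Without both SHR replicate 1 and WKY replicate 3, 27 lay below 0 (background 50.7%), 18 were separated downwards (background 23.0%) and 2, Ifit1 and Ifih1, upwards (background 22.1%). The median difference of the members was then -0.25. Leaving out these 2 arrays removes the highest SHR and the lowest WKY value of most members, so a move towards lower values in SHR follows in part from which arrays were removed. Over the 6 fits that each left out 1 array, 14 members changed sign and 28 changed sign or moved by over 1.5 times. The other 5 were Ifit1, Oas1a, Cmpk2, Dtx3l and Ifi44l.

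Markers of other cells also differed between the arrays. The 4 endothelial markers measured of 6 listed had a mean level of 6.44, 4.98 and 4.10 on SHR replicates 1 to 3, against 6.23, 5.58 and 5.55 on WKY replicates 1 to 3. The 7 macrophage markers lay at 5.70, 4.18 and 3.30 in SHR and at 5.11, 4.14 and 4.44 in WKY. The 5 fibroblast markers lay at 9.23, 8.69 and 8.05 in SHR and at 8.81, 8.84 and 8.55 in WKY. SHR replicate 1 was the highest SHR array in all 3 of these lists, and WKY replicate 3 was the lowest WKY array for endothelial and fibroblast markers. Both also held for the white adipocyte, T cell and neutrophil lists below. Single genes differed: Vwf and Col1a1 were highest in WKY on replicate 3, and Col1a1 was lowest in SHR on replicate 1. Among the 33 interferon-stimulated genes, WKY replicate 2 was the highest of the 6 arrays for 16 and SHR replicate 1 for 9. Of all 15281 named genes, WKY replicate 2 was the highest for 2102 and SHR replicate 1 for 2853. White adipocyte markers ran from 4.08 to 7.93 in SHR and from 6.31 to 7.67 in WKY, and the 3 smooth muscle markers from 10.05 to 10.37 and from 10.27 to 10.42. T cell markers, with 6 of 7 tested, had means between 2.25 and 2.84 in SHR and between 2.31 and 2.51 in WKY. Cd4 was the brightest of them, at 7.54, 5.64 and 4.73 in SHR and 6.33, 5.76 and 4.92 in WKY. Cd3e, Cd3g, Cd2 and Cd8a exceeded all array medians on 0 arrays. The 3 tested of 5 natural killer cell markers and 3 of 4 B cell markers had means from 1.54 to 1.99 in SHR. In WKY these ran from 1.58 to 2.10. Of the 3 plasmacytoid dendritic cell markers only Flt3 was tested, with means of 1.89 in both strains. Skeletal muscle markers, with 3 of 4 tested, had means from 4.08 to 4.18 in SHR and from 4.32 to 5.12 in WKY. All 3, Acta1, Ckm and Tnnt3, had SHR arrays wholly below the WKY arrays (background 5.72%). The 2 brown adipocyte markers ran from 4.54 to 7.83 in SHR and from 6.75 to 9.79 in WKY. Neutrophil markers, with 3 of 4 tested, ran from 2.03 to 3.01 and from 2.65 to 3.37. Of these, S100a9 and Csf3r exceeded all array medians on 0 arrays. Mpo lay at 5.97, 4.25 and 3.06 in SHR and at 6.28, 4.35 and 4.49 in WKY. None of these markers passed in limma. The part of these cells in the differences above was not tested.

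**Figure D3:**
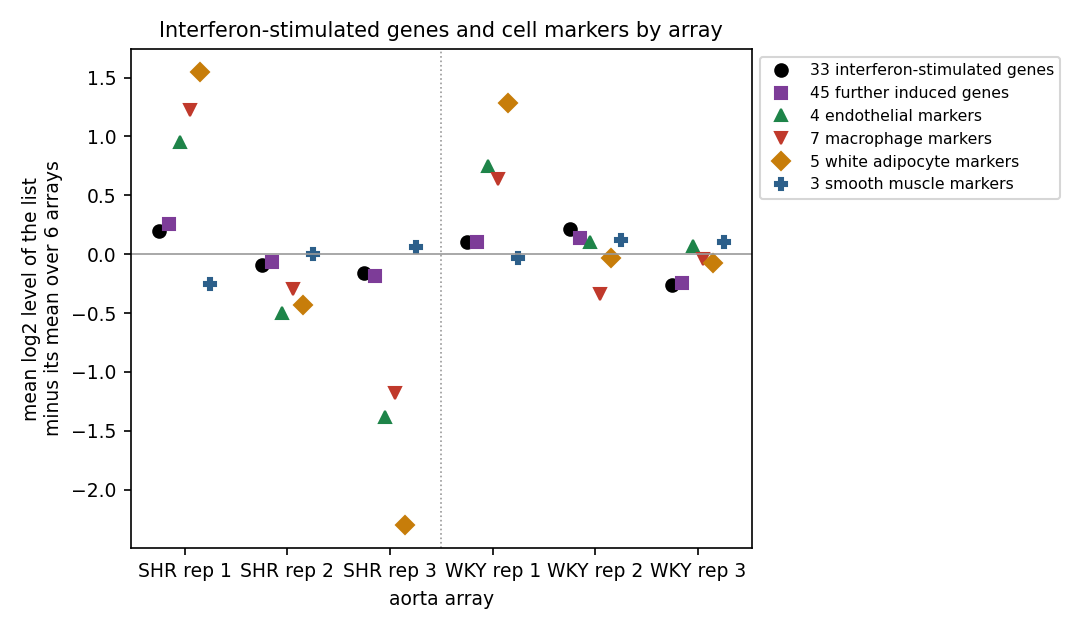
Mean log2 level of each list on each array minus its mean over the 6 arrays, SHR left of WKY, with 1 symbol per list. The interferon-stimulated genes and the further induced genes lie within about 0.3 of 0 and are lowest on WKY replicate 3, while adipocyte, macrophage and endothelial markers spread far more widely and are lowest on SHR replicate 3.

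The rest of the pathway showed no difference past the threshold. Of 107 further gene names listed from textbook knowledge, 81 genes were tested, 0 passed in limma (background 0.0851%), and the unadjusted p was under 0.05 for 4 (background 5.88%), of which 2 had higher and 2 had lower values in SHR. The SHR arrays lay wholly above the WKY arrays for 4 of the 81 (background 7.41%) and wholly below them for 5 (background 5.72%). The non-overlapping genes named below were taken by smallest unadjusted p, so their non-overlap is no separate finding. Among the ligands, Ifnb1, the first type I interferon made in an infected cell, had means of 1.45 ± 0.03 in SHR and 1.44 ± 0.36 in WKY (SD, n = 3 each). Ifng, the product of T and natural killer cells, had 1.55 ± 0.41 in SHR and 1.64 ± 0.13 in WKY. Both exceeded all array medians on 0 arrays, so their transcripts are not shown to be present. The other ligands with the smallest p were Ifnl3, Ifna1 and Ifna2, with differences of 0.27, 0.19 and -0.04 and limma adjusted p from 0.923 to 0.976.

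Receptors and kinases were measured on all arrays above the array medians. Ifnar1, a chain of the type I receptor, had means of 5.58 ± 0.17 in SHR and 5.37 ± 0.19 in WKY (SD), and the kinases Jak1 and Tyk2 differed by 0.06 ± 0.18 and -0.09 ± 0.16 (SE). The receptor chains Ifngr1 and Ifngr2 and the kinase Jak2 differed by 0.34, 0.32 and 0.32. Ifnar2 was named by no probe set with 1 gene and was not analysed here. Stat3, which serves cytokines of the interleukin-6 type as well as interferons, lay at 7.94, 7.63 and 7.49 in SHR, against 7.24, 7.13 and 6.55 in WKY. Its arrays did not overlap (0.71 ± 0.23, SE), and the limma adjusted p was 0.732. Of the 9 tested genes of this list 8 lay above 0, and 7 of the 9 had their lowest value on WKY replicate 3.

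Sensors and adaptors gave 7 of 13 genes above 0. The 4 with the smallest p were Sting1, the adaptor of cytosolic DNA sensing (-0.30 ± 0.13, SE), the signalling proteins Traf3 (0.40 ± 0.19) and Myd88 (0.62 ± 0.32), and the kinase Tbk1 (0.30 ± 0.19), with limma adjusted p from 0.903 to 0.923. The Sting1 arrays of SHR were all below those of WKY, but it exceeded all array medians on 0 arrays. Of the 8 negative regulators, Ptpn2, a phosphatase that acts on JAK and STAT proteins, lay at 4.97, 4.96 and 4.66 in SHR, against 4.40, 4.37 and 3.77 in WKY. Its arrays did not overlap (0.68 ± 0.21), at a limma adjusted p of 0.717. Irf2bp1, Pias2 and Socs1 differed by -0.23, 0.36 and -0.17 (limma adjusted p from 0.923 to 0.932).

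Further induced genes were split evenly, with 22 of 45 above 0 and 23 below. Ifi27l2b, a relative of Ifi27, lay at 4.85, 4.65 and 4.06 in SHR, against 5.12, 5.35 and 5.18 in WKY (-0.69 ± 0.22, SE; limma adjusted p = 0.734). Uba7, the enzyme that activates ISG15, lay at 3.54, 3.39 and 3.29 in SHR, against 3.73, 4.02 and 3.86 in WKY (-0.46 ± 0.15; limma adjusted p = 0.758). The arrays of the strains did not overlap for either gene. The helicase Mov10 differed by -0.34 ± 0.15 and Oas1i, a copy of the OAS1 genes, by -0.49 ± 0.22 (limma adjusted p of 0.913 and 0.921). Tnfsf10 and Ly6e, chosen after their values were seen, were the pathway genes past the threshold without SHR replicate 1 and WKY replicate 3. Those arrays were singled out with the members' values known, so this passing supports nothing about either gene. Tnfsf10, the death ligand TRAIL, lay at 6.39, 4.28 and 4.37 in SHR, against 6.26, 6.00 and 4.33 in WKY. Ly6e, a membrane protein that hinders viral entry, lay at 7.48, 5.97 and 6.02 in SHR, against 7.27, 7.14 and 6.06 in WKY. SHR replicate 1 sat with WKY replicates 1 and 2, and WKY replicate 3 with SHR replicates 2 and 3, for both genes.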

How the data were processed

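The deposited values are log2 levels per probe set. The submitters' processing notes name RMA and Affymetrix Expression Console 1.2.1. RMA subtracts background, brings arrays to one distribution and joins the probes of a set. The sources used here do not give the summarization level. Genes were named from the platform annotation where it gives 1 symbol (18511 probe sets) and matched to current and older symbols in the RefSeq table of GRCr8.

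Probe sets with a mean at or above the 25th percentile (log2 level 1.17; 21659 probe sets) entered lmFit and eBayes of limma 3.58.1 (R 4.3.3) with strain as the only term, two-sided, with Benjamini-Hochberg adjustment over all of them. A gene is represented by its brightest probe set on average. In simulated data on 21659 probe sets the fit recovered 40% of differences of 1 log2 unit and 86% of 2 between SHR and WKY. The simulated arrays had equal variance and no shared array effects, whereas WKY replicate 3 had a fitted array weight of 0.22. These shares are therefore not the recovery to be counted on in the measured arrays. Arrays have no sequencing depth, and their number limits the precision.

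The members and the pathway and marker lists were chosen with earlier results of these data known. Every member is named; of each pathway list the 4 genes with the smallest unadjusted p are named, with Ifnar1, Ifngr1, Jak1, Tyk2, Ifnb1 and Ifng. Replicate numbers were not taken to pair arrays: deviations from the strain means of same-numbered arrays correlated at 0.35, -0.08 and 0.23. Alternatives were a replicate block, other filters, a further quantile normalization, median centring, a trend with a robust prior, array weights, the mean of a gene's probe sets, and leaving out arrays.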

Additional observations from a re-analysis of the deposited data

How the results depend on the processing

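With the replicate number as a block (replicate block), 3 probe sets passed in place of 15, and the counts of members above 0, separated and past the threshold were unchanged; the numbers are not shown to pair the arrays. Under array weights, 7 members lay above 0 in place of 12, and 65 probe sets passed. With the filter at the 50th percentile 27 members were tested, without Ifit1, and 3 were separated in place of 5. Leaving out 1 array at a time gave 7 (without WKY replicate 3) to 16 members above 0, 6 to 11 separated members, and 2 to 5 probe sets past the threshold, with fewer arrays in each fit. Separation was then more common among all named genes too. Without WKY replicate 3 it was 12.6% upwards and 12.6% downwards, against 7.41% and 5.72% with all arrays. This share was not counted for the other arrays, so nothing is read from these counts. Without both SHR replicate 1 and WKY replicate 3, 6 members lay above 0 and 20 were separated (background 22.1% upwards and 23.0% downwards). In that fit 1 member (Ifit1), 2 other pathway genes (Tnfsf10 and Ly6e) and 115 probe sets passed. These arrays were singled out with the members' values known, so those counts support nothing about Ifit1, Tnfsf10 or Ly6e. The limma adjusted p of Ifit1 was 0.228 with all arrays and 0.121 to 0.679 without any 1. With all arrays and the 25th percentile filter, 4 members and 4 other pathway genes had an unadjusted p under 0.05 (background 5.88%). These counts were 8 and 7 with the replicate block, 10 and 14 under array weights, and 12 and 15 without both arrays. The share of all named genes was not counted in those alternatives, so nothing is read from the rise. The median difference of the members ran from -0.247 to -0.015 over all alternatives, and Ifit1 stayed between 1.43 and 2.21 wherever it was tested. Of 489 member values under the alternatives, 10 moved by 1 replicate SD or more. Differences near 0 turned under array weights (Ifng 0.12, Jak1 -0.085), a further quantile normalization (Ifna2 0.011) and median centring (Ifna2 0.009). Without both arrays Ifng (0.12) and Jak1 (-0.18) turned. Ifngr1 (-0.027) and Jak2 (-0.039) also turned there, from 0.34 and 0.32 with all arrays. Without 1 array, Ifng ran from -0.327 to 0.047, Jak1 from -0.066 to 0.146, Ifnb1 from -0.122 to 0.209, Ifna2 from -0.082 to 0.002, Ifngr1 from 0.087 to 0.482 and Jak2 from 0.107 to 0.459. The cause of these moves was not tested.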
